A study of Mus musculus with 4 samples.

Results

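Heme and iron handling genes were described in tumours grown from CT26, a colon carcinoma cell line of BALB/c mice, by RNA-seq of 4 tumour libraries. The 10 genes, of 23283 gene symbols in the deposited table, were taken by symbol for known roles in heme breakdown, iron storage, iron export and iron uptake. They were chosen by role, but with FPKM values of these same libraries known, among them the anti-PD-1 responses of Hmox1 and the untreated levels of Lcn2. All values are therefore given as a description, without a test.

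The 4 groups had 1 library each. IL-34 OE tumours came from CT26 cells that overexpress IL-34, a ligand of the CSF-1 receptor of macrophages, and IL-34 KO tumours came from CT26 cells deficient in it. Each line was sampled after treatment with an antibody against PD-1, an inhibitory receptor of T cells, and without treatment. Every library thus came from a modified line on the BALB/c background, and no library of unmodified CT26 was analysed here. How many clones or animals stood behind a library, the promoter driving IL-34, the antibody schedule and the age of the animals are not stated in the labels. The study asked how IL-34 bears on the outcome of PD-1 blockade.

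With 1 library per group, no difference has a replicate check. Il34 was at 104 FPKM, a fragment count scaled to transcript length and library depth, in both OE libraries, against 3.02 FPKM in the anti-PD-1 KO library and 3.52 FPKM in the untreated KO library, which is the direction of the labels. Depth, estimated from the step that 1 fragment adds to low values, was 22900000 to 25500000 fragments per library. The anti-PD-1 KO library stood apart in 2 lists of other tissues. Its summed level of 11 epidermis genes was 111 FPKM, against 1.31 to 5.10 FPKM in the other libraries, and that of 15 skeletal muscle genes was 491 FPKM, against 22.4 to 162 FPKM. The anti-PD-1 OE library stood apart at the other end of the muscle list, at 22.4 FPKM against 123 FPKM in the untreated OE library. With anti-PD-1 in the OE line, 10 of the 12 muscle genes that could be counted were lower by a log2 of at least 1, with a median of −1.85. Genes that mark epithelium were low in every library, with a sum of 2.21 to 10.2 FPKM over 10 genes and Cldn7 listed at 0, although CT26 is a carcinoma line.

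Cells take up iron bound to transferrin through the transferrin receptor, store it in ferritin, a shell of heavy and light chains, and release it through ferroportin. Heme from dying red blood cells is taken up mainly by macrophages, where heme oxygenase 1 opens the ring and frees the iron, and biliverdin reductases turn the other product into bilirubin. Heme also relieves repression by BACH1, which silences Hmox1, Spic and the ferroportin gene. Iron regulatory proteins bind hairpins called iron-responsive elements. In iron-poor cells this binding blocks translation of ferritin and ferroportin mRNA and protects transferrin receptor mRNA from decay, so mRNA levels of ferritin need not follow its protein.

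The hairpin is shown for those of these genes that are known to carry it. Among them it separates control by iron through translation from control through mRNA decay, the latter in 1 gene. The letters searched on the sense strand were CNNNNNCAGTGN followed by 5 bases able to pair, G with U included, with the 5 bases before the loop. Of the 10 genes' RefSeq-matched GENCODE transcripts, Fth1, Ftl1 and Slc40a1 had 1 match each in the 5′ untranslated region, and Tfrc had 4 in the 3′ untranslated region. Each is printed 5′ to 3′ as DNA letters of the transcript strand, with the 6 loop letters in capitals.
Fth1 (chr19:9982732-9982760, plus strand): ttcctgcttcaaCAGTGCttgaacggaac
Ftl1 (chr7:45459779-45459807, minus strand): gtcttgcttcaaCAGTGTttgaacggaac
Slc40a1 (chr1:45925465-45925493, minus strand): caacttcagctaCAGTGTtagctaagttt
Tfrc, first match (chr16:32631219-32631247, plus strand): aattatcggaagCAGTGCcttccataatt
Tfrc, last match (chr16:32631710-32631738, plus strand): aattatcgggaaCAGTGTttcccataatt
These coordinates are those of GENCODE M21 on GRCm38, the assembly named mm10. The same letters were found in 0.105% of the 5′ untranslated regions of 19992 protein-coding genes and in 0.563% of the 3′ untranslated regions of 20774 genes, over regions of varying length. A match of letters does not show that a protein binds there, and the other 6 genes had none.

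Of the 10 genes, 8 had at least 1 FPKM in at least 1 library; Slc40a1 and Spic did not. Hmox1, Slc11a1 and Lcn2 ranged by a log2 of at least 1 over the 4 libraries on the scale of log2(FPKM + 1), as did 3.52% of the 11813 genes with at least 1 FPKM. Without the anti-PD-1 KO library only Lcn2 of the 10 did so, beside 0.659% of genes. Without the untreated KO library Hmox1 and Slc11a1 did so, beside 3.28% of genes. Ferritin, biliverdin reductase and Hmox2 mRNA varied little, while Hmox1, Slc40a1, Tfrc, Slc11a1 and Lcn2 each had at least 1 library well above or below the rest. Small ranges were common among all genes. The range was met or passed by 63.6% of genes for Fth1, 76.9% for Ftl1, 84.6% for Blvra and 33.0% for Blvrb.

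**Figure D1:**
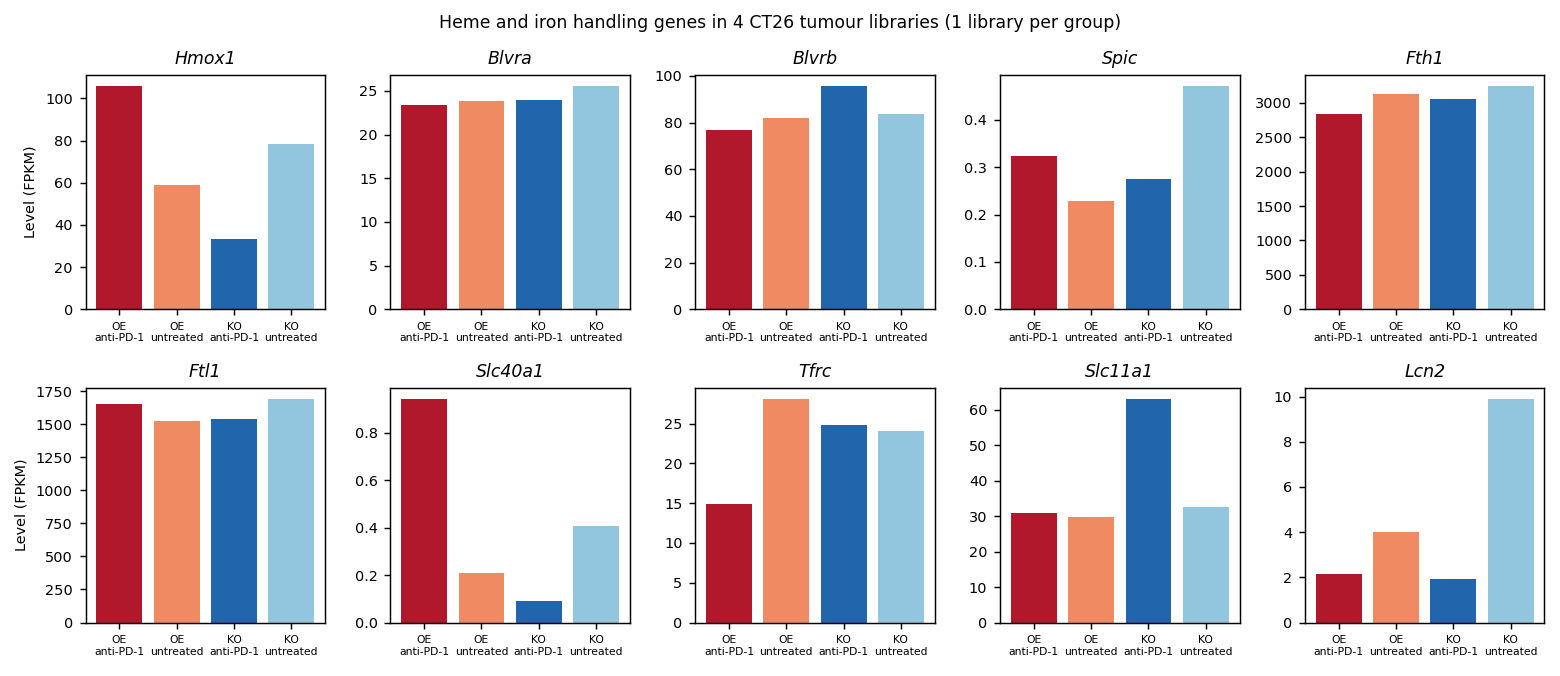
Level of each of the 10 genes (vertical axis, FPKM, from 0, own scale per panel) in the 4 libraries, 1 bar per library. Hmox1 and Slc40a1 are highest in the anti-PD-1 OE library and lowest in the anti-PD-1 KO library, Tfrc is lowest in the anti-PD-1 OE library, Slc11a1 is highest in the anti-PD-1 KO library and Lcn2 is highest in the untreated KO library.

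Hmox1 encodes heme oxygenase 1, the inducible enzyme that opens the heme ring (chromosome 8, 75093618 to 75100593). Its level was 106 FPKM in the anti-PD-1 OE library, 58.8 FPKM in the untreated OE library, 33.3 FPKM in the anti-PD-1 KO library and 78.5 FPKM in the untreated KO library. The treated library was the higher of the pair in the OE line and the lower of the pair in the KO line. With anti-PD-1 the level was 1.81-fold that of untreated tumours in the OE line and 0.424-fold in the KO line. Between the treated libraries, OE was 3.20-fold KO, and between the untreated libraries 0.749-fold. The range of 1.65 in log2 was met or passed by 1.06% of genes.

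Hmox2, the constitutive heme oxygenase, was nearly level, at 34.4 FPKM in the anti-PD-1 OE library, 34.7 FPKM in the untreated OE library, 33.2 FPKM in the anti-PD-1 KO library and 36.6 FPKM in the untreated KO library. The ratio of Hmox1 to Hmox2, both per length, was 3.09 in the anti-PD-1 OE library, 1.69 in the untreated OE library and 2.14 in the untreated KO library. The inducible form was thus the more abundant in these 3 libraries, while in the anti-PD-1 KO library the levels lay side by side at 33.3 FPKM for Hmox1 and 33.2 FPKM for Hmox2.

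Several marker lists moved with Hmox1 or against it. In bulk tumour RNA, fewer cells of a type and less RNA per cell cannot be told apart. Of 11 red blood cell genes, 8 were in the table. Their sum was 71.9 FPKM in the anti-PD-1 OE library and 47.8 FPKM in the untreated OE library, against 43.0 FPKM in the anti-PD-1 KO library and 40.9 FPKM in the untreated KO library. This sum was carried by the globin genes Hba-a1 and Hbb-b2, whose copies are near-identical, so their values are uncertain. The sum was thus higher with anti-PD-1 in the OE line and nearly the same in both KO libraries.

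The 16 pan-macrophage genes summed to 4855 FPKM in the anti-PD-1 OE library and 5435 FPKM in the untreated OE library, against 9248 FPKM in the anti-PD-1 KO library and 5413 FPKM in the untreated KO library. The library with the highest sum of this list was thus the one with the least Hmox1. Lyz2 alone gave 4338 FPKM of that sum. In the KO line 12 of the 16 genes were higher with anti-PD-1 by a log2 of at least 0.5, while Cd14 was lower, at 40.0 against 51.7 FPKM. The 13 hypoxia and glycolysis genes summed to 3049 FPKM in the anti-PD-1 OE library and 2897 FPKM in the untreated OE library, against 2136 FPKM in the anti-PD-1 KO library and 3317 FPKM in the untreated KO library. In the KO line 10 of these 13 were lower with anti-PD-1 by a log2 of at least 0.5, beside 2.74% of all genes, and Hmox1 was lower too. The median of the 13 was −0.89, beside −0.06 over all genes. The part of these lists in the Hmox1 values was not tested.

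**Figure D2:**
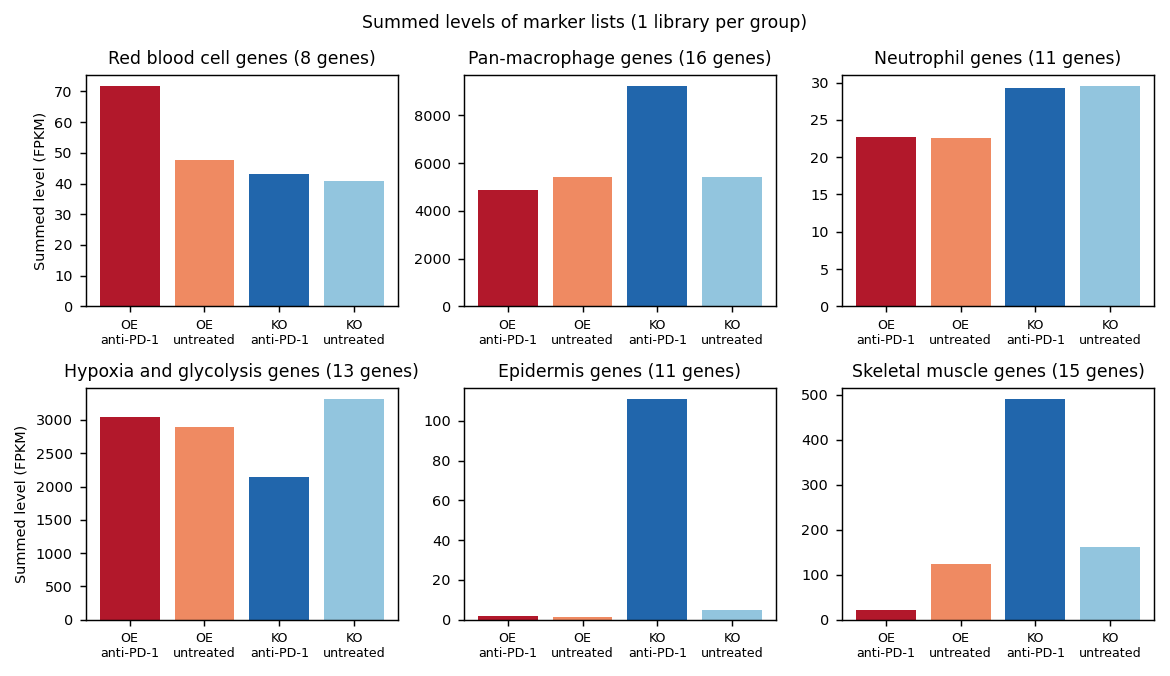
Summed level (vertical axis, FPKM, from 0, own scale per panel) of 6 marker lists in the 4 libraries, 1 bar per library. Red blood cell genes are highest in the anti-PD-1 OE library (71.9 FPKM), while pan-macrophage (9248 FPKM), epidermis (111 FPKM) and skeletal muscle (491 FPKM) genes are highest and hypoxia genes (2136 FPKM) lowest in the anti-PD-1 KO library.

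The biliverdin reductases showed no such pattern. Blvra, the main adult biliverdin reductase (chromosome 2, 127070657 to 127097084), was at 23.4 FPKM in the anti-PD-1 OE library, 23.9 FPKM in the untreated OE library, 24.0 FPKM in the anti-PD-1 KO library and 25.6 FPKM in the untreated KO library. Its highest level was 1.09-fold its lowest, and a RefSeq pseudogene model, Gm31414, overlaps it, so the value is uncertain. Blvrb, which also acts as a flavin reductase (chromosome 7, 27447978 to 27465981), was at 76.7 FPKM in the anti-PD-1 OE library, 81.9 FPKM in the untreated OE library, 95.8 FPKM in the anti-PD-1 KO library and 83.7 FPKM in the untreated KO library. The highest of these was 1.25-fold the lowest. The enzymes downstream of heme oxygenase thus differed by far less between libraries than the 3.20-fold of Hmox1.

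Spic encodes a transcription factor that heme induces in iron-recycling macrophages of the spleen (chromosome 10, 88675270 to 88683023). It was at 0.324 FPKM in the anti-PD-1 OE library, 0.229 FPKM in the untreated OE library, 0.275 FPKM in the anti-PD-1 KO library and 0.472 FPKM in the untreated KO library. These values rest on about 12 fragments in the anti-PD-1 OE library, 9 in the untreated OE library, 10 in the anti-PD-1 KO library and 19 in the untreated KO library, too few to rank the libraries. Other markers of such macrophages were mixed. Clec4f, a marker of Kupffer cells, was listed at 0 in every library and Cd5l did not exceed 0.377 FPKM, whereas Siglec1 was at 33.3 to 61.8 FPKM and Vcam1 at 96.4 to 117 FPKM.

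The ferritin chains were among the most abundant mRNAs. Fth1, the heavy chain that oxidises iron (chromosome 19, 9982703 to 9985092), was at 2842 FPKM in the anti-PD-1 OE library, 3132 FPKM in the untreated OE library, 3050 FPKM in the anti-PD-1 KO library and 3250 FPKM in the untreated KO library. It ranked between 9th and 18th of all genes. Ftl1, the light chain that helps form the mineral core (chromosome 7, 45457944 to 45459886), was at 1652 FPKM in the anti-PD-1 OE library, 1525 FPKM in the untreated OE library, 1536 FPKM in the anti-PD-1 KO library and 1691 FPKM in the untreated KO library. The highest level was 1.14-fold the lowest for Fth1 and 1.11-fold for Ftl1.

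Together the ferritin chains made up 0.867% of all FPKM in the anti-PD-1 OE library and 0.889% in the untreated OE library, against 0.938% in the anti-PD-1 KO library and 0.908% in the untreated KO library. The ratio of Fth1 to Ftl1, per length, was 1.72 in the anti-PD-1 OE library, 2.05 in the untreated OE library, 1.99 in the anti-PD-1 KO library and 1.92 in the untreated KO library. Heavy chain mRNA was therefore the more abundant in all 4 libraries, least so in the treated OE library. RefSeq holds 7 pseudogene models named for a ferritin chain, and reads can be divided among such copies, so these levels are uncertain.

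Slc40a1 encodes ferroportin, the iron exporter (chromosome 1, 45908070 to 45925594). It was at 0.943 FPKM in the anti-PD-1 OE library, 0.207 FPKM in the untreated OE library, 0.0927 FPKM in the anti-PD-1 KO library and 0.406 FPKM in the untreated KO library. This corresponds to about 69 fragments in the anti-PD-1 OE library, 16 in the untreated OE library, 7 in the anti-PD-1 KO library and 33 in the untreated KO library. The order of the libraries was that of Hmox1, and also that of Car9 and Ndrg1 of the hypoxia and glycolysis list. Bnip3 of that list was instead highest in the untreated KO library, at 95.2 FPKM. With so few fragments and libraries the order is a description only, and the share of all genes with this order was not computed. As plain ratios, the anti-PD-1 library was 4.56-fold the untreated one in the OE line and 0.228-fold in the KO line, and OE was 10.2-fold KO between the treated libraries. The same differences in log2(FPKM + 1) were 0.69, −0.36 and 0.83, since the pseudocount of 1 exceeds every level of this gene. The low fragment counts limit these folds, most of all the 10.2-fold, whose lower value rests on about 7 fragments.

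Cp, which encodes ceruloplasmin, the ferroxidase that works beside ferroportin, had another order. It was at 7.99 FPKM in the anti-PD-1 OE library and 14.2 FPKM in the untreated OE library, against 20.1 FPKM in the anti-PD-1 KO library and 14.1 FPKM in the untreated KO library. It was lowest in the library where Slc40a1 was highest, which also had the lowest muscle sum; the part of muscle RNA in these values was not tested. Hamp, which encodes hepcidin, the hormone that removes ferroportin from the cell surface, was listed at 0 in every library.

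Tfrc encodes transferrin receptor 1, the main route of iron uptake (chromosome 16, 32608896 to 32632794). It was at 14.9 FPKM in the anti-PD-1 OE library, against 28.1 FPKM in the untreated OE library, 24.8 FPKM in the anti-PD-1 KO library and 24.1 FPKM in the untreated KO library. The treated OE library was below the other 3, which lay within 1.16-fold of each other for OE against KO when untreated and within 1.03-fold between the KO libraries. Anti-PD-1 was 0.530-fold untreated in the OE line. The log2 range of 0.87 was met or passed by 4.90% of genes.

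Tfrc is also known to follow cell division. The 13 proliferation genes summed to 792 FPKM in the anti-PD-1 OE library and 815 FPKM in the untreated OE library, against 737 FPKM in the anti-PD-1 KO library and 829 FPKM in the untreated KO library. In the OE line their median log2 ratio was −0.01, and none of the 13 was lower by a log2 of 0.5, beside 0.951% of all genes. The treated OE library, where Tfrc was lowest, also had the lowest muscle sum. In the KO line the muscle sum was 491 FPKM with anti-PD-1 and 162 FPKM untreated, while Tfrc was at 24.8 and 24.1 FPKM. The parts of cell division and of muscle RNA in the Tfrc values were not tested. Trf, which encodes transferrin itself, was at 21.9 FPKM in the anti-PD-1 OE library and 32.3 FPKM in the untreated OE library, against 27.3 FPKM in the anti-PD-1 KO library and 34.3 FPKM in the untreated KO library. Of the genes of the iron regulatory system, Aco1, which encodes iron regulatory protein 1, was at 13.1 to 15.1 FPKM, Ireb2, which encodes iron regulatory protein 2, at 8.31 to 10.1 FPKM and Fbxl5, which targets iron regulatory proteins for degradation, at 26.5 to 29.9 FPKM.

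Slc11a1 encodes a metal transporter of the phagosome in macrophages and neutrophils (chromosome 1, 74375203 to 74386051). BALB/c mice are known to carry a missense allele that impairs it. It was at 30.8 FPKM in the anti-PD-1 OE library, 29.7 FPKM in the untreated OE library, 63.1 FPKM in the anti-PD-1 KO library and 32.6 FPKM in the untreated KO library. The treated KO library stood above the other 3, which were close together. It was 1.93-fold its untreated counterpart, and OE was 0.488-fold KO between the treated libraries.

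The sum of the pan-macrophage list was likewise highest in the treated KO library. In the KO line 12 of its 16 genes were higher with anti-PD-1 by a log2 of at least 0.5, beside 7.17% of all genes, with a median of 0.79 beside 0.93 for Slc11a1. Csf1r was at 70.4 FPKM in the anti-PD-1 OE library and 79.7 FPKM in the untreated OE library, against 118 FPKM in the anti-PD-1 KO library and 78.3 FPKM in the untreated KO library. The part of the macrophage list in the Slc11a1 values was not tested.

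Lcn2 encodes lipocalin 2, a secreted protein of neutrophils, macrophages and epithelia that binds iron-carrying siderophores (chromosome 2, 32384637 to 32387739). It was at 2.16 FPKM in the anti-PD-1 OE library, 4.01 FPKM in the untreated OE library, 1.91 FPKM in the anti-PD-1 KO library and 9.89 FPKM in the untreated KO library. This corresponds to about 36 fragments in the anti-PD-1 OE library, 71 in the untreated OE library, 33 in the anti-PD-1 KO library and 185 in the untreated KO library. The untreated KO library was above the rest, and the treated library was the lower of the pair in both lines. Anti-PD-1 was 0.538-fold untreated in the OE line and 0.193-fold in the KO line, and OE was 0.405-fold KO between the untreated libraries. The log2 range of 1.91 was met or passed by 0.736% of genes.

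Neutrophil and epithelial genes, whose cells can make Lcn2, were low. Of 12 neutrophil genes, 11 were in the table, and the granule genes Camp, Elane and Mpo were listed at 0 in every library. The neutrophil sum was 22.7 FPKM in the anti-PD-1 OE library and 22.6 FPKM in the untreated OE library, against 29.3 FPKM in the anti-PD-1 KO library and 29.6 FPKM in the untreated KO library. With anti-PD-1 in the KO line, 2 genes of the list were higher and 2 lower by a log2 of 0.5. S100a9 was at 2.82 FPKM in the anti-PD-1 KO library against 6.79 FPKM in the untreated KO library, and S100a8 at 2.68 against 5.58 FPKM in the same libraries. Csf3r went the other way, its level with anti-PD-1 being 1.95-fold that of the untreated KO library, as did Retnlg, at 1.91 against 0.645 FPKM. The neutrophil genes were thus mixed in the KO line, S100a8 and S100a9 being lower with anti-PD-1, as Lcn2 was, and Csf3r and Retnlg higher. The epithelial keratin Krt19 was at 0.331 FPKM in the anti-PD-1 OE library, 0.173 FPKM in the untreated OE library, 0.0357 FPKM in the anti-PD-1 KO library and 2.74 FPKM in the untreated KO library. Krt8 and Krt18 were at 1.94 and 2.29 FPKM in the untreated KO library and did not exceed 0.108 FPKM elsewhere. Krt20 and Cdh1 were instead highest in the anti-PD-1 KO library, at 3.13 FPKM against 1.89 FPKM in the untreated KO library for Krt20 and at 1.40 against 0.484 FPKM for Cdh1. The sum of all 10 epithelial genes was highest in the untreated KO library, at 10.2 FPKM. The part of epithelial and neutrophil RNA in the Lcn2 values was not tested.

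**Figure D3:**
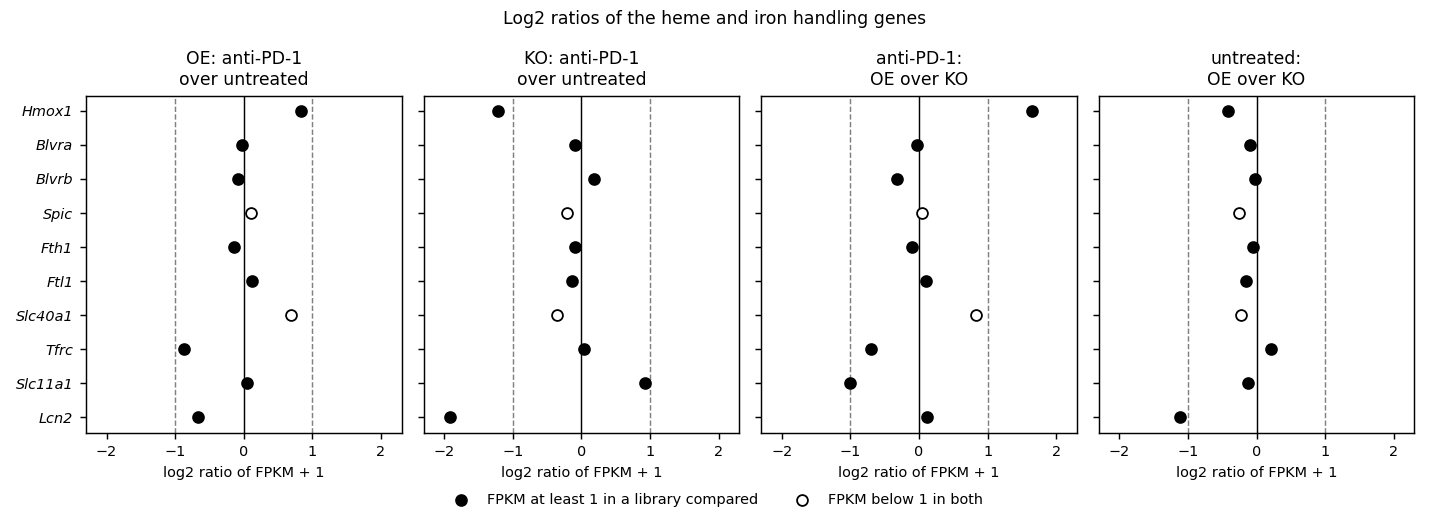
Difference in log2(FPKM + 1) (horizontal axis) of the 10 genes in 4 comparisons, 1 point per gene, open where neither library reached 1 FPKM, with dashed lines at a log2 of 1 in either direction. Hmox1 lies at 0.84 with anti-PD-1 in OE tumours and at −1.21 in KO tumours, and Lcn2 lies furthest to the left, at −1.91, in KO tumours.

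The 5 comparisons were then read for all 10 genes together. A gene was counted at a log2 ratio of at least 1 in size with at least 1 FPKM in a library compared, and again at 0.5; 8 of the 10 genes could be counted. With anti-PD-1 in the OE line, 0 were higher by 1, beside 0.0524% of genes, and 0 were lower, beside 0.279%. At 0.5, Hmox1 was higher, beside 0.733% of genes, and Tfrc and Lcn2 were lower, beside 0.951%. The median of the 8 was −0.06, beside 0.00 over all 11460 genes.

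With anti-PD-1 in the KO line, 0 were higher by 1, beside 1.49% of genes. Hmox1 and Lcn2 were lower, beside 0.341%. At 0.5, Slc11a1 was higher, beside 7.17% of genes, and the same 2 were lower, beside 2.74%. The median of the 8 was −0.09, beside −0.06 over 11715 genes. Slc11a1 lay at 0.93 in log2 and was counted at 1 under all 3 other scalings of the libraries.

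Between the treated libraries, OE over KO, Hmox1 was higher by 1, beside 0.383% of genes, and Slc11a1 was lower at −1.01, beside 2.37%. With a pseudocount of 5, Slc11a1 was at −0.93 here and was not counted. At 0.5, Hmox1 was again the only one of the 8 that was higher, beside 2.15% of genes, and Tfrc joined Slc11a1 on the lower side, beside 7.68%. Between the untreated libraries 0 were higher by 1, beside 0.122% of genes, and Lcn2 was lower at −1.12, beside 0.0959%, and at −0.72 with a pseudocount of 5. At 0.5, 0 were higher, beside 0.445%, and Lcn2 was lower, beside 0.558%. The medians of the 8 were −0.07 with treatment, beside 0.04 over all genes, and −0.11 without, beside −0.03.

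The anti-PD-1 log2 ratio in OE minus that in KO uses all 4 libraries and left no residual degree of freedom. It was higher by 1 for Hmox1, at 2.06, and for Lcn2, at 1.24, beside 0.516% of genes, and lower by 1 for 0, beside 2.18%. At 0.5 the same 2 were higher, beside 3.67%, and Tfrc, at −0.91, and Slc11a1, at −0.88, were lower, beside 7.76%. Hmox1 had opposite directions in the lines, whereas Lcn2 was lower with treatment in both and more so in KO. With a pseudocount of 5, Lcn2 was at 0.78 and was no longer counted. The comparisons share libraries, so their values are not independent of each other.

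**Figure D4:**
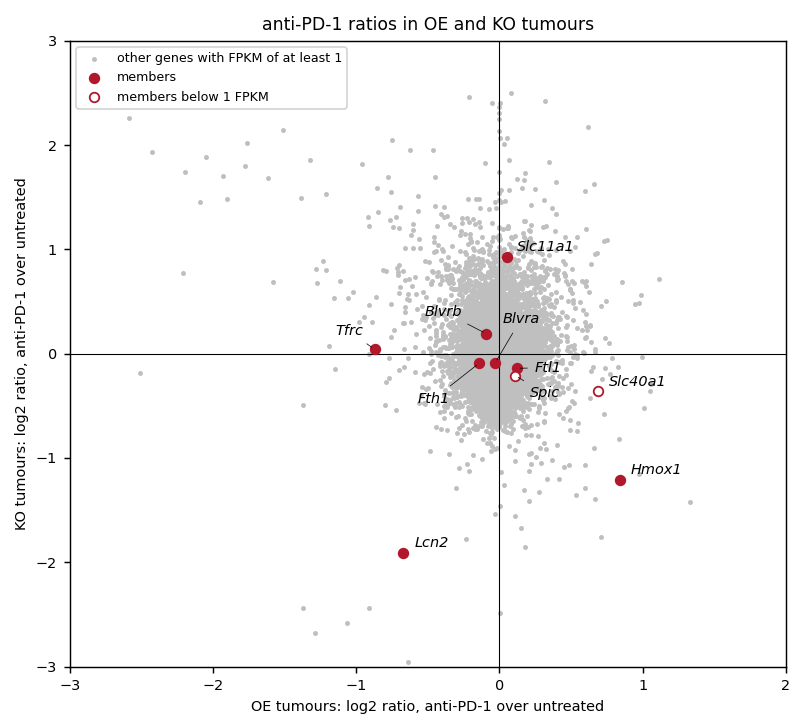
Difference in log2(FPKM + 1), anti-PD-1 minus untreated, in OE tumours (horizontal axis) and in KO tumours (vertical axis), for genes with at least 1 FPKM in a library (grey; 8 lie beyond the axes) and for the 10 heme and iron genes (red, open below 1 FPKM). Hmox1 lies at lower right, Lcn2 at lower left, Tfrc at left and Slc11a1 highest of the 10, while the ferritins and biliverdin reductases lie in the bulk of genes.

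The wider system was read from 10 lists of other heme, iron and redox genes, with 94 genes in the table, of which 75 reached 1 FPKM in a library. At a log2 of 1, 0 of 75 were higher and 0 lower with anti-PD-1 in the OE line, beside 0.0524% and 0.279% of all genes. In the KO line 1 was higher and 0 lower, beside 1.49% and 0.341%. Between the treated libraries 0 were higher and 2 lower in OE, beside 0.383% and 2.37%, and between the untreated libraries 0 were higher and 0 lower, beside 0.122% and 0.0959%. These few genes are near the share over all genes. The medians lay between −0.05 and −0.01 in these 4 comparisons. The genes counted were Scara5, a receptor for ferritin, and Cp. Scara5 was at 0.665 FPKM in the anti-PD-1 OE library and 1.53 FPKM in the untreated OE library, against 2.92 FPKM in the anti-PD-1 KO library and 0.948 FPKM in the untreated KO library.

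Among genes of heme uptake, Cd163, the macrophage receptor for haptoglobin-bound hemoglobin, was at 5.69 FPKM in the anti-PD-1 OE library and 7.59 FPKM in the untreated OE library, against 9.59 FPKM in the anti-PD-1 KO library and 4.90 FPKM in the untreated KO library. It thus went in the opposite direction to Hmox1 in both lines, and its difference of responses was −1.20. Lrp1, a receptor for heme bound to hemopexin, was at 78.2 FPKM in the anti-PD-1 OE library and 54.5 FPKM in the untreated OE library, against 83.7 FPKM in the anti-PD-1 KO library and 66.6 FPKM in the untreated KO library. Slc48a1, which carries heme out of the lysosome, was at 27.1 to 30.0 FPKM. No gene of the 8 measured in heme synthesis differed by a log2 of 0.5 in any of the 4 comparisons. Per comparison and direction, 0.445% to 7.68% of all genes did so. Alas1, which catalyses the first step of that pathway, was at 10.2 to 13.4 FPKM.

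NRF2, encoded by Nfe2l2, activates Hmox1, and BACH1 represses it. Nfe2l2 was at 56.6 to 60.8 FPKM and Bach1 at 8.86 to 10.3 FPKM. Of 19 measured regulators and targets of these factors, 0 passed a log2 of 0.5 with anti-PD-1 in the OE line, where Hmox1 was at 0.84 and where 0.733% of all genes were higher and 0.951% lower. In the KO line the median was −0.13, beside −0.06 over all genes and −1.21 for Hmox1. There 2 of the 19 were lower by 0.5, beside 2.74% of all genes. These 2 were Maff, a small MAF partner, at 12.4 FPKM in the anti-PD-1 KO library against 21.8 FPKM in the untreated KO library, and Me1, malic enzyme, at 11.4 against 17.6 FPKM in the same libraries. Gclm encodes a subunit of the enzyme that starts glutathione synthesis. It was at 28.1 FPKM in the anti-PD-1 OE library and 25.7 FPKM in the untreated OE library. In the KO line it was at 20.7 FPKM with anti-PD-1 and 26.6 FPKM untreated. The part of NRF2 and BACH1 in the Hmox1 values was not tested.

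The 3 genes of the 10 that ranged by a log2 of at least 1 were set beside 8990 other genes with at least 5 FPKM in a library, by the Euclidean distance of their centred log2(FPKM + 1) profiles over the 4 libraries. With so few points, near profiles are a description only. For Hmox1 they included Mmp12, a macrophage elastase, at a distance of 0.18 and Hspa1a, a heat shock protein, at 0.33, and 14 genes lay within 0.5. For Slc11a1 they were Tgtp1, an interferon-induced GTPase, and Hk3, a hexokinase, both at 0.07, and Clec4a1, a lectin of myeloid cells, at 0.08, and 486 genes lay within 0.5. For Lcn2 the nearest were Cxcl1, a chemokine for neutrophils, at 0.84, Mgp, a matrix protein, at 0.88 and S100a9, a neutrophil calcium-binding protein, at 0.94, and 0 lay within 0.5.

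**Figure D5:**
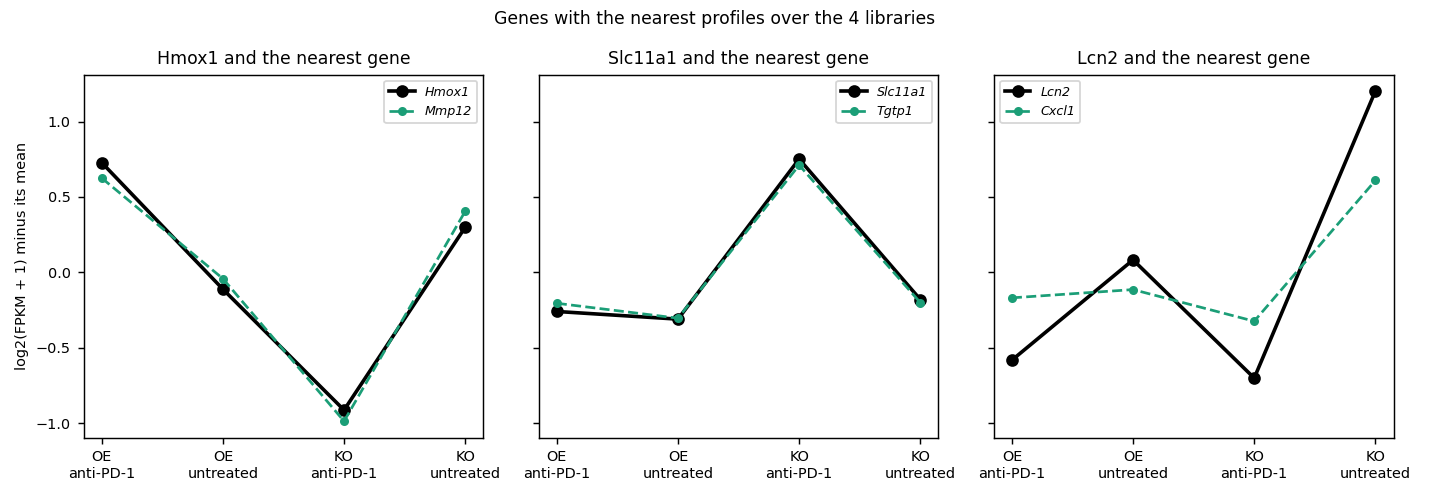
Profiles of log2(FPKM + 1) minus its mean (vertical axis) over the 4 libraries (horizontal axis) for Hmox1, Slc11a1 and Lcn2 (black) and the nearest gene of each (dashed). The profiles nearest to Hmox1 and Slc11a1 lie at a distance of 0.18 and 0.07, whereas the nearest to Lcn2 lies at 0.84.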

How the data were processed

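RNA-seq of 4 tumour libraries, 1 per group, was analysed from 1 table of FPKM values that the authors deposited, with 23745 gene rows and 1 emptied line. The submitters' processing notes name mm10, Cufflinks 2.2.1, TopHat2 2.1.0 and CASAVA 1.8.2, with settings, strand included, not given in the sources used here. Per the labels, RNA came from a PureLink kit and libraries from a strand-specific SureSelect kit. FPKM depends on the few most abundant transcripts of a library, and near-identical genes can share reads. Table starts are counted from 0, as 54.6% of them plus 1 equal the RefSeq start on GRCm38.p6 against 3.47% as written, and 1 was added.

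Of several rows of a symbol the one with the highest mean was kept, and 773 short RNAs were left out. Ratios are log2(FPKM + 1), which understates differences of low genes; folds are plain FPKM ratios. Counts used a log2 of 1 or 0.5 and a minimum of 1 FPKM. Fragments were estimated from the size of 1 fragment's step in genes with a single model and a known length; 70.5% to 73.5% of values of 1 to 5 steps lay within 0.1 of a whole number. Without counts no counting interval was computed. No test was made, since groups had no replicates and the genes were chosen on these libraries. The genes named from wider lists were the 4 with the widest range at 5 FPKM or more and those past a log2 of 1; not all are printed, some items are not reported here, and other single genes in the text were chosen after their values were seen. The members and lists were chosen with earlier results of these data known, and the epithelial list was added after seeing the data. Alternatives were 2 pseudocounts, 2 FPKM minimums, 3 scalings and summed rows. The counting and the step estimate were tested on simulated data. Python 3.11.15, numpy 2.4.6, pandas 2.3.3 and matplotlib 3.10.9 were used.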

Additional observations from a re-analysis of the deposited data

Results flagged for a closer look

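The response of Hmox1 to anti-PD-1 had opposite directions in the lines, with a difference, OE minus KO, of 2.06 in log2. It was not alone in this. Of the 13 hypoxia and glycolysis genes, 12 had a difference of at least 0.5, beside 3.67% of all genes. Their median was 0.16 in the OE line, −0.89 in the KO line and 0.85 for the difference. The response of Slc40a1 also had opposite directions, with a difference of 1.05 on the log2(FPKM + 1) scale at levels below 1 FPKM. With 1 library per group these differences were not tested.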

How the results depend on the processing

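No paired analysis was possible because each group had 1 library. Under other settings, 120 summaries of the 10 genes and 407 single log2 ratios kept within 1.5 times (counts), 0.1 (medians) or 0.2 (ratios, with the same side of the size rule). The other 19 summaries and 43 ratios did not, and no counted gene changed direction. With a pseudocount of 5, the numbers of lower genes in OE against KO were 0 with treatment and 0 without, and 1 gene had a higher difference of responses. Rescaling to TPM put the median of all genes in the KO line at 0.09, beside −0.06 as reported. It gave 1 higher gene in the OE line (Slc40a1, which reaches the minimum on that scale), 1 in the KO line (Slc11a1), 2 in OE against KO with treatment and 2 lower differences (Tfrc and Slc11a1), with a KO median of 0.06. Median-of-ratios scaling gave 1 higher gene in the KO line. Scaling without epidermis, muscle, adipocyte and erythroid genes gave 1 higher gene in the KO line with a median of 0.06, and 2 lower differences with a median of −0.13. With no minimum the median difference was 0.16. With a pseudocount of 0.1 and no minimum, chosen after seeing the data, 1 gene was higher in the OE line and 2 in OE against KO with treatment, with medians of 0.04 for that comparison and 0.16 for the difference. Leaving out 1 library at a time, the number ranging by a log2 of 1 was between 1 and 3. Except where named, the cause was not tested. Depth limits Slc40a1 and Spic.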

Other observations

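Genes that use iron in mitochondria were counted in the same way. Of 16 genes of mitochondrial iron import and iron-sulphur cluster assembly, 0 passed a log2 of 0.5 in any of the 4 pairwise comparisons. Per comparison and direction, 0.445% to 7.68% of all genes passed it, so this count is near the share over all genes. The medians of the 16 lay between −0.07 and −0.03. Slc25a37, which encodes mitoferrin 1, the importer of mitochondrial iron, was at 12.6 FPKM in the anti-PD-1 OE library and 13.2 FPKM in the untreated OE library, against 15.0 FPKM in the anti-PD-1 KO library and 13.7 FPKM in the untreated KO library.

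Gpx4, the peroxidase that protects membranes from iron-dependent lipid peroxidation, was at 307 FPKM in the anti-PD-1 OE library and 306 FPKM in the untreated OE library, against 241 FPKM in the anti-PD-1 KO library and 309 FPKM in the untreated KO library. It was lowest in the treated KO library. None of the 6 genes of its list passed a log2 of 0.5 in any pairwise comparison, beside 0.445% to 7.68% of all genes per comparison and direction.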
